A study of Mus musculus with 18 samples.

Results

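In dorsal root ganglia (DRG), sensory neurons lie wrapped by satellite glia, among myelinated axons. The 8 cholesterol synthesis genes described here are Hmgcs1, Sqle, Idi1, Fdft1, Lss, Cyp51, Dhcr7 and Srebf2, taken by symbol out of 48529 genes summed from the deposited transcript estimates. All 8 were found, and all 8 passed the filter on low counts. RNA came from whole lumbar DRG (L2, L3 and L4) on the inoculated side of 18 male C57BL/KaLwRijHsd mice labelled as 5 to 7 weeks of age. The 9 MM mice carried 5TGM1-GFP myeloma cells, a mouse tumour line injected into the femur, and the 9 SHAM mice were given vehicle there. Both groups were sampled on post-surgical day 24. The ganglia were sequenced whole, so fewer cells of a type and less RNA per cell cannot be told apart in any value below.

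Cholesterol is made from acetyl-CoA through mevalonate, the isoprenoids and squalene, and then through lanosterol and a series of trimming steps. In peripheral nerve and ganglia it is a major part of myelin and of neuronal and glial membranes. Within the nerve itself, much of it is made locally because lipoprotein cholesterol crosses into nerve poorly. The enzymes are under common control: when membrane sterol is low, the transcription factor SREBP2, made from Srebf2, is carried from the endoplasmic reticulum by Scap, cut by proteases and sent to the nucleus, while Insig proteins hold it back when sterol is high.

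The promoters of the early enzyme gene Hmgcs1, of the factor gene Srebf2 and of Idi1, the gene with the lowest p below, are shown because SREBP2 and its partner NF-Y are known to act at such sites. They are RefSeq windows on build GRCm38.p6, which is not the GRCm39 build of the quantifications, and run from 250 bases before to 50 bases after the annotated start. Capitals mark matches to TCACNCCA, the core of the sterol regulatory element, or to CCAAT, the NF-Y box, on either strand.
Hmgcs1 (chr13:119690101-119690400, plus strand): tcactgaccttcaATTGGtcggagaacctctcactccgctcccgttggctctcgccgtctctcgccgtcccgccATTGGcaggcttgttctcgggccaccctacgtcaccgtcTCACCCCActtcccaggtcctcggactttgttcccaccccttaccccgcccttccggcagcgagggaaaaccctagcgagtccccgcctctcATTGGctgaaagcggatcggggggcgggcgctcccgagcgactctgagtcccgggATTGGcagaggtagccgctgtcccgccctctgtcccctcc
Srebf2 (chr15:82147019-82147318, plus strand): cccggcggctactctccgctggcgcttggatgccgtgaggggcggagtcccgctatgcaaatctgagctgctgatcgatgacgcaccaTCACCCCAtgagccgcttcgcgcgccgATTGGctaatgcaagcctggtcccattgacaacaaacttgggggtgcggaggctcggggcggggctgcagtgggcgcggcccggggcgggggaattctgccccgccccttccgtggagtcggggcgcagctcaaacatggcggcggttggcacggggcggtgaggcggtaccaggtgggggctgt
Idi1 (chr13:8885356-8885655, plus strand): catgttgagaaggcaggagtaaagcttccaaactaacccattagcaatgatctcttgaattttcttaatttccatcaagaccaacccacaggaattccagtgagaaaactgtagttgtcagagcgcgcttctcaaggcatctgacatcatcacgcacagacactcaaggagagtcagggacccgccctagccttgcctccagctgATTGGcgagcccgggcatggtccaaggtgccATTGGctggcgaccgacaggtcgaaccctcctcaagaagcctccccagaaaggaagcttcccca
The Hmgcs1 window held 1 match to TCACNCCA and 4 to CCAAT, the Srebf2 window 1 and 1, and the Idi1 window 0 and 2. Promoters of 6 of the 8 genes were matched in the table (Sqle and Fdft1 were not). A TCACNCCA match was found in 2 of these 6, Hmgcs1 and Srebf2, against 4.36% of all 32851 promoter windows. A CCAAT match was found for 6 of 6, against 37.4% of all windows, and a match to the GC box GGGCGG, which the factor Sp1 can bind, for 6 of 6, against 35.7%. Of 12 other cholesterol synthesis enzymes with matched promoters, 11 held CCAAT, 10 held GGGCGG and 1 (Msmo1) held TCACNCCA. Dhcr7 has 3 windows in the table, of which 1 held CCAAT, so its chance of a match was larger than that of a single window. A match in letters is a description of the window and not a measured binding site.

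Libraries held between 19218249 and 21771206 estimated reads. The neuronal marker list checked the tissue label: all 15 markers were detected, with a summed level of 10590 to 23520 CPM in MM and 17010 to 23130 CPM in SHAM (CPM, read counts scaled by library size and TMM). Of 12 plasma and myeloma cell markers, 9 were tested and 8 rose in MM. Their summed level ran from 136 to 8457 CPM in MM and from 88.2 to 139.5 CPM in SHAM. The tumour immunoglobulin transcript Ighg2b stood highest in MM9 (4374 CPM), MM8 (2333 CPM) and MM5 (2197 CPM), against 11.7 CPM (MM2) to 390 CPM in the other MM libraries and at most 16.4 CPM in SHAM. MM2 lay below SHAM5 (14.8 CPM) and SHAM9 (16.4 CPM), so the groups overlapped for this transcript. Skeletal muscle markers summed to 20460 CPM in SHAM8 and 4324 CPM in SHAM7, against at most 2202 CPM in any other library.

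MM was set against SHAM to ask what differs in ganglia on the side of a myeloma-bearing femur. None of the cholesterol synthesis genes passed edgeR's quasi-likelihood test: 0 of 8 rose and 0 of 8 fell at a Benjamini-Hochberg adjusted p under 0.05. Of the 15774 genes tested, 2.99% passed (471 genes), with 2.75% higher (433) and 0.241% lower (38) in MM. At an unadjusted p under 0.05 there was 1 of 8, Idi1, against 22.5% of all genes. DESeq2 called 0 of 8 (7.61% of all genes), and limma called 0 of 8 both on log2 TPM (0.716% of all genes) and on the deposited normalized values (1.39% of all genes). The groups overlapped for all 8, as for all but 0.146% of genes tested. The log2 fold changes (MM over SHAM) lay between 0.00 and 0.14, with a median of 0.06 against -0.004 over all genes tested. The 95% intervals put every gene between a 0.954-fold and a 1.23-fold level in MM relative to SHAM. These intervals show how large a difference the data allow and do not show that the levels were the same.

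**Figure D1:**
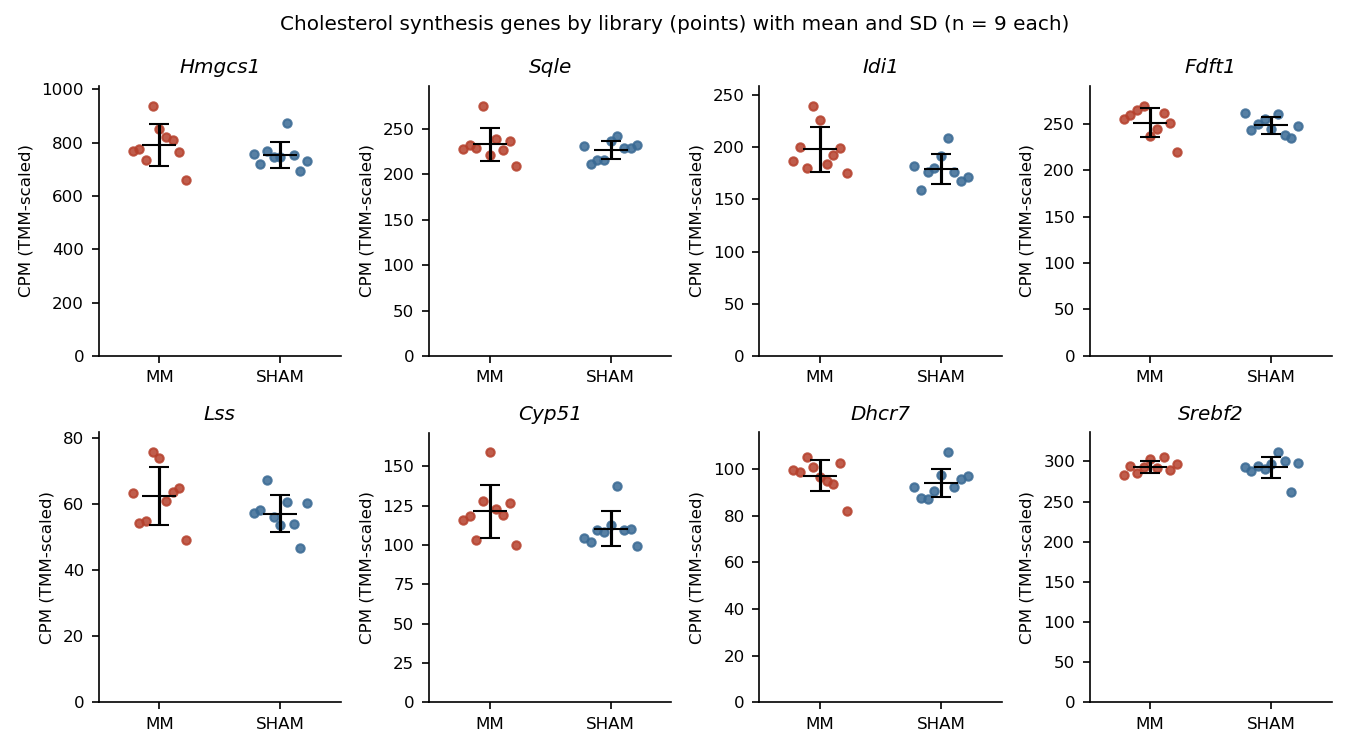
CPM (TMM-scaled, from 0) of the 8 cholesterol synthesis genes in each of 9 MM and 9 SHAM libraries, as points, with the mean and SD as black marks. The groups overlap in all 8 panels. MM4 gives the highest MM point in 5 of 8 panels, MM9 the lowest in 7 of 8, and SHAM6 the highest SHAM point in 6 of 8.

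Srebf2 (ENSMUSG00000022463), which encodes the factor that switches on the pathway, was the steadiest of the 8 in MM. It had a lowest, median and highest value of 283.0, 292.7 and 305.5 CPM in MM, against 262.5, 294.1 and 311.1 CPM in SHAM. All 9 MM values lay within the SHAM range. The means were 293.3 ± 7.55 CPM in MM, against 292.8 ± 13.1 CPM in SHAM (SD, n = 9 each), a log2 fold change of 0.00 with a 95% interval of the fold from 0.954 to 1.05 (edgeR adjusted p = 0.972). The sign of so small a change is not fixed: it turned negative under 8 settings that changed the scaling, the filter, the unit or the transcripts, or that left out several libraries, down to -0.102 with limma on log2 TPM, and when single libraries were left out (lowest -0.0179, without SHAM8).

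Of the early mevalonate and isoprenoid steps, Hmgcs1 (ENSMUSG00000093930) encodes HMG-CoA synthase, which makes the HMG-CoA from which mevalonate is formed. Its lowest, median and highest values were 660.0, 777.1 and 937.4 CPM in MM, against 695.0, 745.4 and 872.5 CPM in SHAM. The groups overlapped over most of their range, although the SHAM median was exceeded by 7 of 9 MM libraries, which at least 7 of 9 did for 23.5% of all genes. The mean was 791.2 ± 77.7 CPM in MM, against 753.7 ± 49.5 CPM in SHAM (SD, n = 9 each), 1.05-fold (95% interval 0.964 to 1.14; edgeR adjusted p = 0.485).

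Idi1 (ENSMUSG00000058258) encodes isopentenyl diphosphate isomerase, which interconverts a pair of isoprenoid building blocks. It stood at 175.2, 192.3 and 239.6 CPM (lowest, median, highest) in MM, against 158.8, 176.6 and 208.8 CPM in SHAM. MM4 and MM5 (226.1 CPM) lay above every SHAM library, and SHAM2, SHAM8 and SHAM9 lay below every MM library. The means were 198.2 ± 21.5 CPM in MM, against 179.4 ± 14.5 CPM in SHAM (SD, n = 9 each), and 8 of 9 MM libraries exceeded the SHAM median. That is a log2 fold change of 0.14 ± 0.06 (SE), or 1.11-fold (95% interval 1.01 to 1.21), with an unadjusted p = 0.0346 and an adjusted p = 0.192 in edgeR. It did not pass in any of 29 alternative fits, where the adjusted p ran from 0.0933 (without SHAM6) to 0.568.

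Squalene is made and then epoxidised by the next pair. Fdft1 (ENSMUSG00000021273), squalene synthase, had 220.1, 255.3 and 269.2 CPM (lowest, median, highest) in MM, against 234.6, 247.9 and 261.7 CPM in SHAM. The SHAM range lay inside the MM range. The means were 251.4 ± 15.4 CPM in MM, against 248.4 ± 9.36 CPM in SHAM (SD, n = 9 each; 1.01-fold, 95% interval 0.955 to 1.07; edgeR adjusted p = 0.819). Sqle (ENSMUSG00000022351), squalene epoxidase, a rate-limiting step of the sterol branch, had 209.4, 228.6 and 275.4 CPM in MM, against 211.7, 228.9 and 242.0 CPM in SHAM. Only MM4 exceeded the highest SHAM library and only MM9 lay below the lowest. Its means were 233.1 ± 18.1 CPM in MM, against 227.0 ± 10.3 CPM in SHAM (SD, n = 9 each; 1.03-fold, 95% interval 0.961 to 1.10; edgeR adjusted p = 0.637).

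The sterol ring is then closed and trimmed. Lss (ENSMUSG00000033105), lanosterol synthase, had 49.4, 63.6 and 75.8 CPM (lowest, median, highest) in MM, against 46.9, 57.4 and 67.4 CPM in SHAM. MM4 and MM5 lay above every SHAM library, and the other 7 MM libraries lay within the SHAM range. The fold was 1.09 (95% interval 0.971 to 1.23; edgeR adjusted p = 0.360). Cyp51 (ENSMUSG00000001467), the lanosterol 14-alpha-demethylase, had 100.2, 119.1 and 158.7 CPM in MM, against 99.1, 109.2 and 137.3 CPM in SHAM. MM5 was the only MM library above the highest SHAM library, SHAM6. Its fold was 1.10 (95% interval 0.985 to 1.23; edgeR adjusted p = 0.290). Dhcr7 (ENSMUSG00000058454), 7-dehydrocholesterol reductase, a last step of the pathway, had 82.1, 98.6 and 105.1 CPM in MM, against 87.1, 92.2 and 107.1 CPM in SHAM. Every MM library but MM9 lay above the SHAM median, and none exceeded the highest SHAM library. Its fold was 1.03 (95% interval 0.963 to 1.11; edgeR adjusted p = 0.586).

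**Figure D2:**
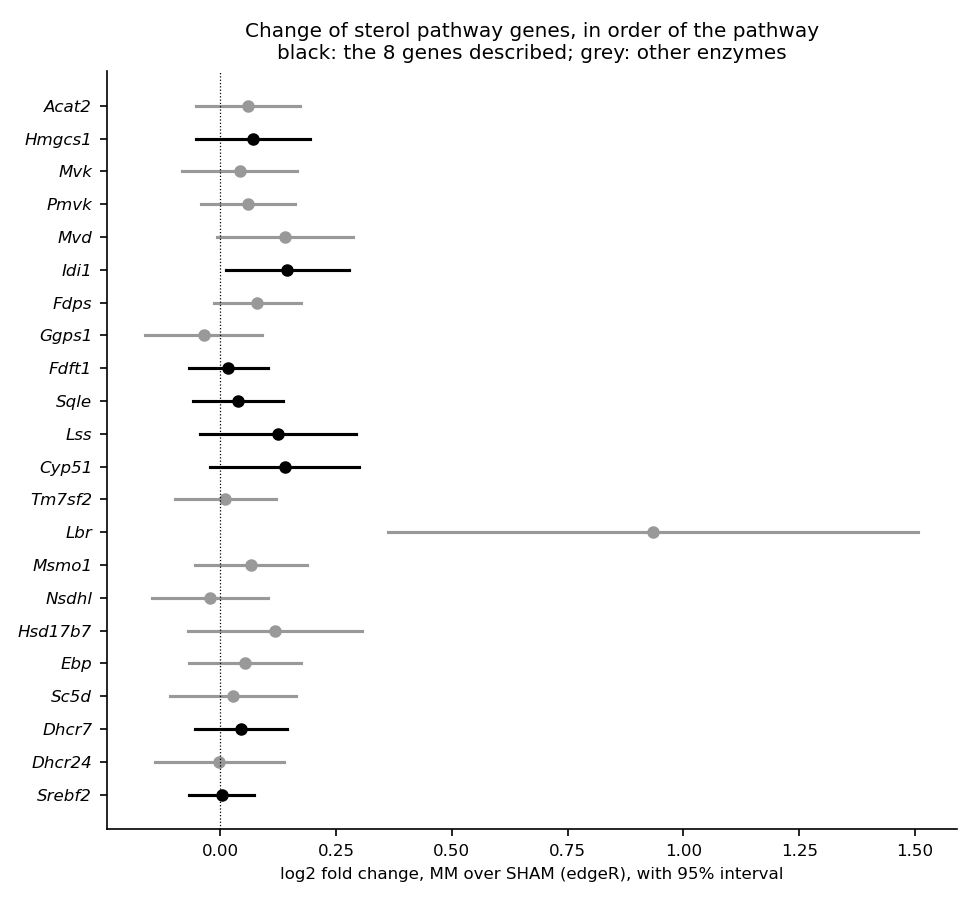
Log2 fold change (MM over SHAM, edgeR) with its 95% interval for the 8 genes (black) and 14 other sterol enzymes (grey), ordered along the pathway with Srebf2 last. The 8 estimates lie between 0.00 and 0.14, and the widest displacement is that of Lbr at 0.93.

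The choice of scale mattered for the sign of these small differences. Fold changes were above 0 for 8 of 8 genes with TMM, against 48.9% of all genes. They were above 0 for 7 of 8 with DESeq2 and 2 of 8 (Idi1 and Cyp51) with limma on log2 TPM, where the median of all genes was -0.071. Without MM5, MM8 and MM9, the libraries with the most tumour transcript, 7 of 8 were above 0 and none passed, with a lowest adjusted p of 0.548.

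Levels of different genes were compared as TPM, which divides by transcript length. The order was the same in both groups. Hmgcs1 led with 445.8 ± 68.4 TPM in MM, against 443.5 ± 41.6 TPM in SHAM, rank 299 in MM and rank 292 in SHAM among the 15774 genes tested. Sqle followed with 152.5 ± 21.03 TPM in MM, against 153.7 ± 9.11 TPM in SHAM, and Fdft1 with 148.7 ± 17.3 TPM in MM, against 151.5 ± 10.5 TPM in SHAM. Srebf2 had 129.6 ± 9.50 TPM in MM, against 139.4 ± 13.6 TPM in SHAM, and Idi1 120.1 ± 17.4 TPM in MM, against 113.0 ± 11.5 TPM in SHAM. The ranges of neighbours in this order from Sqle to Dhcr7 overlapped in both groups. Those of Dhcr7 and Cyp51 overlapped in MM but not in SHAM, and those of Hmgcs1 and Sqle in neither. Compared within each library, Idi1 stood above Dhcr7 and Dhcr7 above Cyp51 in every library (Dhcr7 and Cyp51 closest in MM5, at 66.3 and 64.6 TPM). The means of Sqle and Fdft1 differed by less than 1 SD. Dhcr7 had 83.4 ± 13.6 TPM in MM, against 86.6 ± 7.67 TPM in SHAM, and Cyp51 54.4 ± 7.98 TPM in MM, against 51.1 ± 5.38 TPM in SHAM. Lss was lowest, at 19.5 ± 3.84 TPM in MM, against 20.1 ± 3.59 TPM in SHAM (all SD, n = 9 each), without overlap with Cyp51 in either group.

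**Figure D3:**
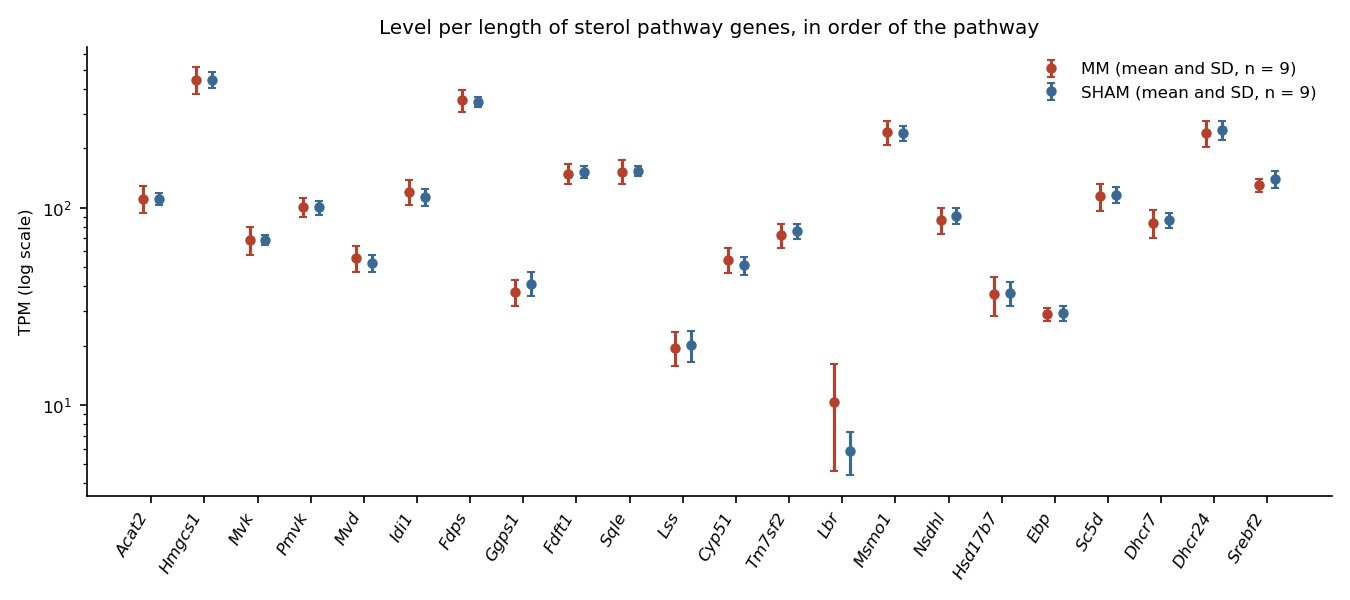
Mean TPM with SD (log axis) in MM (left point of each pair) and SHAM (right point), 9 libraries each, for the 8 genes and 14 other enzymes along the pathway. Hmgcs1 stands at 445.8 TPM in MM and 443.5 TPM in SHAM, and Lss at 19.5 TPM in MM and 20.1 TPM in SHAM.

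For Idi1, Cyp51 and Sqle a single coding transcript carried nearly all reads: in both groups Idi1-201, Cyp51-201 and Sqle-201 held on average over 99% of the reads of their gene. Hmgcs1 was split between 2 coding transcripts, with Hmgcs1-201 at 79.4% ± 1.86 of reads in MM, against 77.1% ± 1.04 in SHAM (SD, n = 9 each). Lss was made up differently. Transcripts that GENCODE M21 types as retained intron took 66.8% ± 3.54 of its estimated reads in MM, against 67.7% ± 2.77 in SHAM (SD, n = 9 each), and in no library less than 60.1%. The main one, Lss-204 (ENSMUST00000160671, 6992 bases), stood at 8.89 ± 1.48 TPM in MM, against 8.35 ± 1.12 TPM in SHAM, and the coding Lss-201 (ENSMUST00000048678, 4667 bases) at 7.64 ± 1.58 TPM in MM, against 7.09 ± 1.32 TPM in SHAM (SD, n = 9 each). For Srebf2 the retained intron share of reads was 11.4% ± 0.53 in MM, against 11.1% ± 0.74 in SHAM (SD, n = 9 each), and for the other 6 genes its mean was under 1%. In TPM the retained intron Srebf2-205 (1981 bases) weighed more, at 31.6 ± 2.25 in MM, against 32.0 ± 2.53 in SHAM. The main coding Srebf2-201 stood at 86.2 ± 6.63 TPM in MM, against 89.2 ± 7.59 TPM in SHAM (SD, n = 9 each). The place of Srebf2 above Idi1 in the TPM order counts Srebf2-205. Dhcr7-202, the main coding transcript of Dhcr7, held 94.6% of its reads in MM and 93.0% in SHAM. In TPM it stood at 65.3 ± 6.49 in MM, against 64.6 ± 4.72 in SHAM (SD, n = 9 each). Short transcripts such as Dhcr7-208 (850 bases, 8.16 TPM in MM and 9.16 TPM in SHAM) made up much of the rest. The place of Dhcr7 above Cyp51 in every library counts these short transcripts. When reads of coding transcripts alone were counted, an alternative chosen after seeing these shares, the log2 fold change of Lss was 0.16 with an edgeR adjusted p of 0.410, and 0 of 8 genes passed. Salmon divides reads between overlapping transcripts by estimation, so reads in introns and exons of Lss are not separated by direct count.

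**Figure D4:**
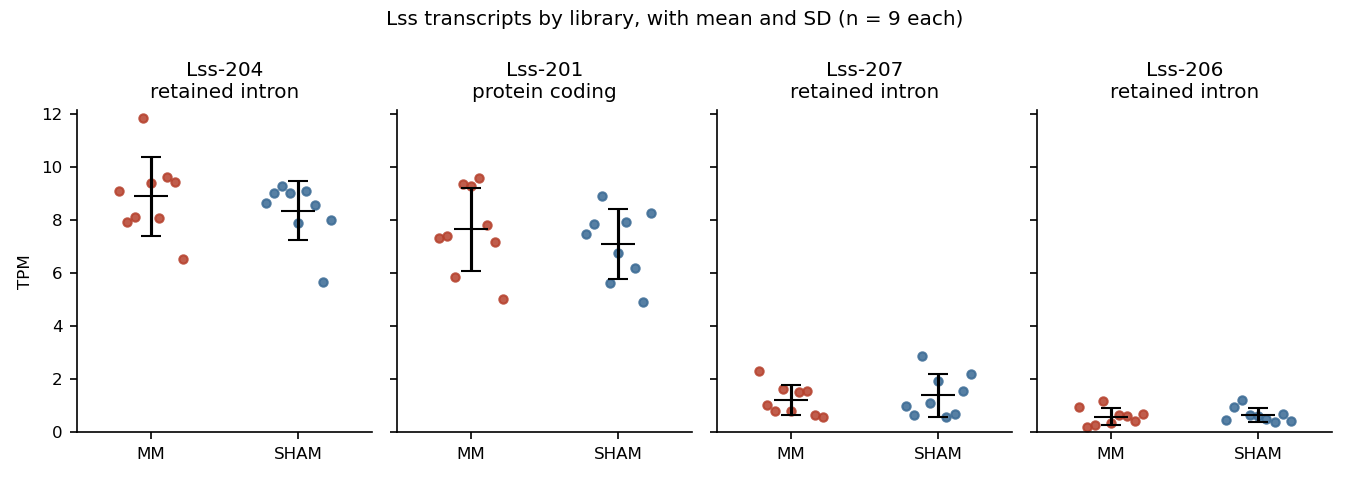
TPM (from 0) of the 4 Lss transcripts that hold at least 1% of its reads in SHAM, by library (points, 9 MM and 9 SHAM), with mean and SD in black. The retained intron transcript Lss-204 (8.89 TPM in MM and 8.35 TPM in SHAM) stands at about the level of the coding Lss-201 (7.64 TPM in MM and 7.09 TPM in SHAM).

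The genes were measured with little counting error: the lowest library held 13079 reads of Hmgcs1 and 884 of Lss, which gives a counting error of 0.874% and 3.36% of the value, while the coefficients of variation between mice ran from 2.57% (Srebf2) to 14.1% (Lss) in MM and from 3.77% (Fdft1) to 9.98% (Cyp51) in SHAM. The SD of log2 CPM was larger in MM than in SHAM for 7 of 8 genes, by up to 1.69 times, and smaller only for Srebf2 (0.037 in MM and 0.067 in SHAM). This difference in spread was not tested. Among 4333 genes with a mean of 50 to 1000 CPM the median SD was likewise 0.167 in MM and 0.097 in SHAM. Srebf2 lay at the 0.1 percentile of SD among these genes in MM and at the 20.5 percentile in SHAM. Much of the Srebf2 spread in SHAM came with SHAM8. That library lay at -0.156 from the group mean in log2 CPM, and the other SHAM libraries between -0.022 and 0.089.

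Within each group several of the genes were high or low in the same libraries. In MM, 5 of 8 were highest in MM4 and 7 of 8 lowest in MM9. In SHAM, 6 of 8 were highest in SHAM6 and 4 of 8 lowest in SHAM8, with the other lows in SHAM2 (2), SHAM3 (1) and SHAM9 (1). How often genes at large were highest or lowest in these libraries was not counted. On average over the genes, log2 CPM deviated from the group mean by 0.16 in MM4, 0.11 in MM5 and -0.20 in MM9, and by 0.16 in SHAM6 and -0.09 in SHAM8, with every other library within 0.07. Marker sums of several cell types also stood apart in some of these libraries, in directions that differed between the lists. Satellite glia markers summed to 980 CPM in MM9, the lowest of all libraries, and to 1624 CPM in MM5, the highest. They summed to 1426 CPM in MM4 (MM median 1420), to 1608 CPM in SHAM6, the highest in SHAM, and to 1255 CPM in SHAM8 (SHAM median 1402). Over the groups their range was 980 to 1624 CPM in MM and 1188 to 1608 CPM in SHAM, and 0 of 10 passed in either direction. Myelinating Schwann cell markers, of which 0 of 12 passed, summed to 18990 CPM in MM5, 6679 CPM in MM4 and 5169 CPM in MM9 (MM range 4028, in MM3, to 18990, median 8640), and to 14080 CPM in SHAM6 and 2758 CPM in SHAM8, the highest and lowest in SHAM. For these markers MM4 lay below the MM median, and MM5 was the highest of all libraries. Neuronal markers summed to 10590 CPM in MM5, 14720 CPM in MM9 and 21150 CPM in MM4, and to 17010 CPM in SHAM6, the lowest in SHAM. Of the 15, 1 fell in MM (Mrgprd), and 14 had a fold change below 0. Vascular and fibroblast markers, of which 0 of 12 passed, were highest in MM5 (3108 CPM) and, in SHAM, in SHAM6 (2183 CPM). Red blood cell markers were highest in SHAM6 (2993 CPM). All 6 tested fell in MM, against 0.241% of all genes, with a median log2 fold change of -2.78. Their median sum was 98.6 CPM in MM, against 498.7 CPM in SHAM. The part of these markers, of Ighg2b and of muscle RNA in the library differences was not tested.

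**Figure D5:**
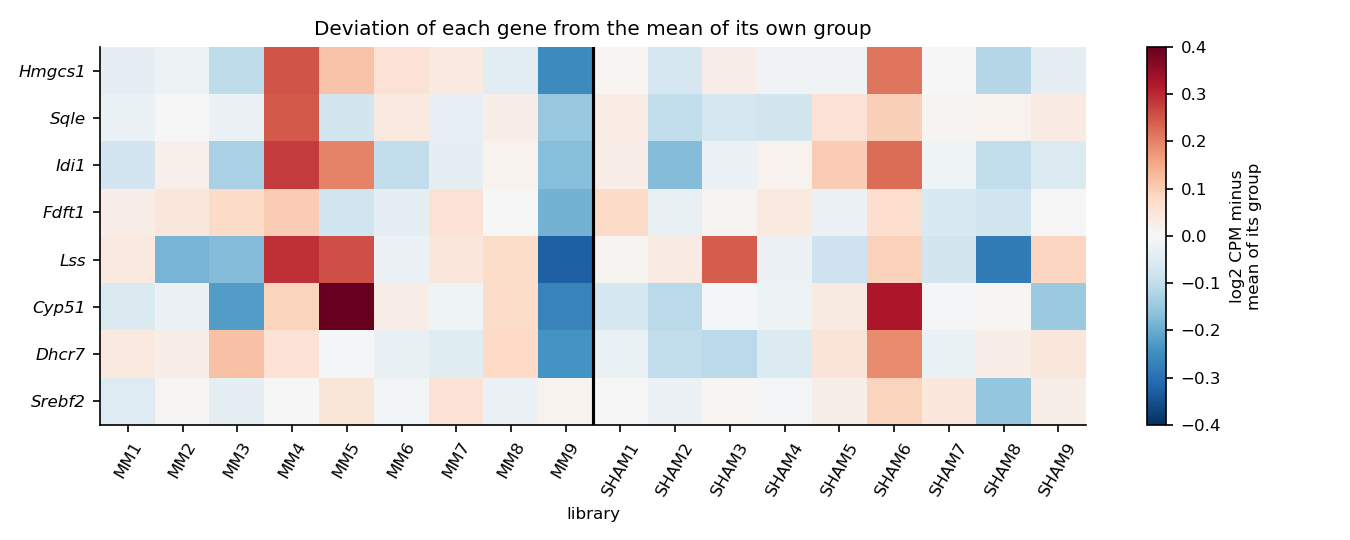
Log2 CPM of each of the 8 genes minus the mean of its own group, for 9 MM (left) and 9 SHAM libraries (right). Columns MM4 and SHAM6 are mostly red (mean deviation 0.16 in both) and MM9 mostly blue (mean deviation -0.20).

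In SHAM, where no tumour cells had been given, the genes were compared pairwise over 9 libraries on log2 CPM. Of 28 pairs 26 had a positive Pearson r, with a median of 0.575. A single pair passed: Sqle and Dhcr7 had r = 0.89 (2-sided exact permutation p = 0.000485, adjusted over the 28 pairs 0.0136) and rho = 0.90 (exact p = 0.00203, adjusted 0.0568), and r = 0.91 without the 2 libraries farthest from the Sqle median. Hmgcs1 and Idi1 had r = 0.85 (exact permutation p = 0.00669, adjusted 0.0937) and rho = 0.70 (exact p = 0.0433, adjusted 0.310), and r = 0.62 without the 2 libraries farthest from the Hmgcs1 median, SHAM6 and SHAM8. Without SHAM6 the median r over all pairs was 0.15, so much of its size on this scale came with that library. On log2 TPM, 28 of 28 pairs were positive with a median r of 0.745, and the median without SHAM6 was 0.785. By Pearson r 14 of 28 passed, and by rho 1 of 28. SHAM8 was the lowest SHAM library in TPM for each of the genes. Without SHAM8 and 1 more library, r of the pairs that passed by Pearson lay between 0.17 (Dhcr7 and Srebf2) and 0.84 (Hmgcs1 and Cyp51). All values of a library share its scaling, and the share of the correlations that this gives was not tested. MM libraries differed widely in tumour transcript (Ighg2b 11.7 to 4374 CPM), so no pairwise test was run over them.

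By likeness of pattern, the mean group-centred log2 CPM of the 8 genes was correlated with each of 13703 other genes over the 18 libraries, MM included, as a description with no test. The 5 most alike were the sterol C5-desaturase gene Sc5d (r = 0.89), the stearoyl-CoA desaturase gene Scd2 (0.84), the sterol C4-methyl oxidase gene Msmo1 (0.84), Golga7 (0.83), which encodes a partner of protein palmitoyltransferases, and Arl4a (0.81), which encodes a small GTPase. Without MM9 and MM4, the libraries farthest from the median, r lay between 0.665 (Arl4a) and 0.837 (Sc5d). None of the 5 passed the MM against SHAM test, and their log2 fold changes lay between 0.01 and 0.07.

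The 15 other enzymes of cholesterol synthesis gave a similar picture: 0 rose, 0 fell, 12 had a fold change above 0, and the median log2 fold change was 0.06. Mvd, which makes isopentenyl diphosphate, was at 50.4 ± 5.92 CPM in MM, against 45.8 ± 4.04 CPM in SHAM (edgeR adjusted p = 0.246). Lbr, a sterol C14-reductase that is also a nuclear lamina receptor, stood apart in size. It had 10.4, 14.3 and 48.7 CPM (lowest, median, highest) in MM, against 8.63, 10.1 and 17.4 CPM in SHAM. Its 3 highest libraries were MM9, MM5 (31.2 CPM) and MM8 (26.9 CPM), those with the most Ighg2b. Lbr did not pass edgeR (log2 fold change 0.93 ± 0.27 SE, adjusted p = 0.0674) but passed with DESeq2 (adjusted p = 0.0155) and in edgeR without MM2 (0.0325), without MM3 (0.0436) or without SHAM6 (0.0416). The log2 fold change of Lbr was 0.665 without MM9 (adjusted p = 0.130) and 0.28 without MM5, MM8 and MM9 (adjusted p = 0.563).

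Of 15 genes of SREBP control (Srebf1, genes that carry, cut or retain SREBP proteins or turn over their regulators, and the promoter-binding partners Nfya, Nfyb, Nfyc and Sp1), 0 passed, and 2 had an unadjusted p under 0.05. Insig1, which retains SREBP in the endoplasmic reticulum and is itself an SREBP target, was at 104.7 ± 17.1 CPM in MM, against 91.7 ± 9.92 CPM in SHAM (log2 fold change 0.19, 95% interval 0.00 to 0.38; edgeR adjusted p = 0.213). Srebf1, which encodes the sister factor of fatty acid synthesis, was at 72.5 ± 12.5 CPM in MM, against 70.5 ± 7.36 CPM in SHAM (edgeR adjusted p = 0.810). All SD are over n = 9 libraries in each group, here and below.

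Uptake and transport genes (17 tested) had 0 calls and a median log2 fold change of 0.02. Npc2, which moves cholesterol out of lysosomes, was at 115.2 ± 32.0 CPM in MM, against 84.0 ± 11.2 CPM in SHAM. The SHAM median was exceeded in 9 of 9 MM libraries. Npc2 missed the threshold in edgeR (adjusted p = 0.0670) and passed with DESeq2 (0.0221) and in edgeR without MM2 (0.0376), without MM3 (0.0479) or without SHAM6 (0.0433). Its 3 highest libraries were MM5 (173.0 CPM), MM9 (162.7 CPM) and MM8 (127.9 CPM). The log2 fold change of Npc2 was 0.46 over all libraries and 0.18 without these 3 (adjusted p = 0.459).

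Genes of LXR, the oxysterol sensor, and of cholesterol efflux had 0 calls of 10 and a median log2 fold change of 0.06. The phospholipid transfer protein gene Pltp was at 37.1 ± 20.2 CPM in MM, against 24.5 ± 10.6 CPM in SHAM (edgeR adjusted p = 0.209), and the transporter gene Abcg4 at 58.4 ± 10.5 CPM in MM, against 66.6 ± 6.74 CPM in SHAM (adjusted p = 0.271). Fatty acid synthesis genes had 0 calls of 12, and 9 of 12 fold changes lay below 0, with a median of -0.05. Acaca, acetyl-CoA carboxylase, was at 187.5 ± 13.8 CPM in MM, against 196.4 ± 8.07 CPM in SHAM (adjusted p = 0.376), and Acly, ATP citrate lyase, at 618.6 ± 61.1 CPM in MM, against 653.2 ± 29.3 CPM in SHAM (adjusted p = 0.405).

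Among esterification and oxysterol genes, 1 of 8 rose, the single call over the 6 pathway lists (77 genes). Ch25h, which makes 25-hydroxycholesterol, an oxysterol known to restrain SREBP processing and to be induced by interferon, had 0.887, 2.49 and 6.41 CPM (lowest, median, highest) in MM, against 0.672, 1.15 and 1.63 CPM in SHAM. The highest value was in MM9, followed by MM8 (4.80 CPM), and 8 of 9 MM libraries, all but MM1, lay over the SHAM median. Its log2 fold change was 1.45 ± 0.31 (SE), or 2.73-fold (95% interval 1.73 to 4.30; edgeR adjusted p = 0.0242). The call was lost when MM5 (adjusted p = 0.0532), MM8 (0.0559), MM9 (0.0523), SHAM1 (0.0533), SHAM7 (0.0528), SHAM8 (0.0532) or SHAM9 (0.0506) was left out, and with limma on log2 TPM (0.0630). The log2 fold changes of Ch25h with 1 of these libraries left out lay between 1.23 (MM9) and 1.43 (MM5 and SHAM1). Without MM5, MM8 and MM9 together the log2 fold change was 0.93 (adjusted p = 0.192). Macrophages are known to make Ch25h. Their markers summed to between 108.5 and 678.1 CPM in MM and between 65.2 and 169.4 CPM in SHAM, with 8 of 14 risen, and their part in the Ch25h difference was not tested. Soat2, an acyltransferase that esterifies cholesterol, was at 0.816 ± 0.199 CPM in MM, against 0.590 ± 0.178 CPM in SHAM (adjusted p = 0.172).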

How the data were processed

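RNA of 9 MM and 9 SHAM mice was sequenced on DNBSEQ, per the labels' protocols, and each library was taken as 1 mouse from the series' design text. The authors quantified transcripts with Salmon 1.5.2 on GRCm39, per the submitters' processing notes, and the index, annotation and options are not given in the sources used here. For each transcript the deposited files give Salmon's estimated count, unscaled, and its TPM. The deposited table of 17787 genes holds a normalized signal, for which the processing notes name DESeq2 with no version. With a tolerance of 5%, 75% of its values over 11953 genes with a mean of at least 100 reads matched the sums described next divided by DESeq2 size factors.

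Estimated counts were summed per gene through GENCODE M21 (GRCm38, matched by transcript number, names only) and rounded. Of 137562 transcripts, 3620 had no gene there and held 0.85% to 1.339% of reads. In edgeR 4.0.16 (R 4.3.3), 15774 genes passed filterByExpr, were TMM-scaled, and group alone entered a robust quasi-likelihood fit. The SE of a fold change and its 95% interval were taken from the F statistic and its degrees of freedom. An adjusted p under 0.05, over all genes, counted as passing. CPM carries the TMM scaling, with a prior count of 2 on the log2 scale. Alternatives used DESeq2 1.42.0, limma 3.58.1 on log2(TPM + 0.1) or log2(signal + 1), other scalings and filters, a replicate block, fewer libraries, and coding transcripts alone. Fold changes on these log scales understate changes of low genes. The edgeR step was tested on simulated data. Correlations used all orderings of 9 libraries. Python 3.11.15 with numpy 2.4.6, pandas 2.3.3 and matplotlib 3.10.9 did the rest.

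The members and gene lists were chosen with earlier results of these data known. Named genes were the 8 members, from each of 6 pathway lists the called genes (up to 6) or, with fewer than 2 called, the 2 with the lowest p, always Insig1 and Srebf1, and the genes most alike in pattern. Some genes that this rule names are not reported here, although they are counted in their lists. Ighg2b and marker list sums are given beside results they bear on.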

Additional observations from a re-analysis of the deposited data

Results flagged for a closer look

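Of 48 groups of 9 libraries (24 named genes in MM and in SHAM), 15 held a library whose gap to its nearest neighbour was over 0.493 of the group's range. Chance gives about 1 in 20 groups, and genes that vary together are not separate flags. Of these, 6 were among the 16 groups of the cholesterol synthesis genes. In SHAM6, Hmgcs1 stood highest of SHAM at 873 CPM and Cyp51 at 137 CPM. In MM4, Sqle stood highest of MM at 275 CPM, and in MM5 Cyp51 did at 159 CPM. In MM9, Dhcr7 stood lowest of MM at 82.1 CPM, and in SHAM8 Srebf2 stood lowest of SHAM at 263 CPM.

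The other flags fell in the same libraries. SHAM6 was also the highest SHAM library for Lbr (17.4 CPM), Mvd (54.8 CPM), Pltp (49.4 CPM), Sc5d (188 CPM) and Golga7 (92.6 CPM). MM5 was the highest MM library for Pltp (86.2 CPM) and Srebf1 (101 CPM). MM9 was the lowest MM library for Mvd (37.8 CPM) and Msmo1 (182 CPM).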

How the results depend on the processing

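The count of cholesterol synthesis genes that passed was 0 of 8 under all 29 alternative fits, where their lowest adjusted p was 0.0933 (Idi1, without SHAM6). The count over all genes, 471, was less stable. It was 1201 with DESeq2, 113 with limma on log2 TPM, 248 with limma on the deposited values, 24 without SHAM5 and SHAM9, 35 without SHAM7 and SHAM8, and 60 with MM5, MM8 and MM9 left out. With 1 library left out it ran from 84 (MM5) to 1014 (MM2): it was over 1.5 times higher without MM1 (760), MM2 or SHAM6 (732) and over 1.5 times lower without MM5, MM8 (104), MM9 (121) or any SHAM library other than SHAM6 (120 to 287). Rises were 91.9% of calls, but 78.7% with DESeq2, 77.8% with limma on the deposited values, 79.2% without SHAM5 and SHAM9 and 81.0% without SHAM6. The pathway lists, with 1 call, had 3 with DESeq2, from 0 to 3 with 1 library left out, and 0 with limma on log2 TPM or with any of these 3 sets of libraries left out. Where the numbers of calls differ, the cause was not tested. SHAM pairs that passed by Pearson r numbered 1 on log2 CPM and 14 on log2 TPM, and by rho 0 and 1.

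With a replicate block, all genes gave 8 calls, the pathway lists 0 and the 8 members 0. The labels give no pairing. Same-numbered libraries correlated by -0.32 to 0.263 in their deviations from group means, with 2 of 9 pairs over 0.1. Of the MM libraries, 2 of 9 were most like their own number. Ighg2b ran from 11.7 to 4374 CPM in MM and reached at most 16.4 CPM in SHAM, so these correlations cannot exclude a pairing. Under the block Ch25h had a log2 fold change of 1.27, against 1.45 without it (edgeR adjusted p = 0.221 under the block). Why calls were lost under the block was not tested.

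Of 696 alternative values of the 24 named genes, 38 turned sign, over 11 genes, none of which had passed. With limma on log2 TPM the log2 fold change was -0.00193 for Hmgcs1, -0.0215 for Sqle, -0.0321 for Fdft1, -0.0488 for Lss, -0.0684 for Dhcr7, -0.102 for Srebf2, -0.0648 for Srebf1, -0.0372 for Sc5d, -0.143 for Scd2, -0.00942 for Golga7 and -0.00875 for Arl4a. On the deposited values it was -0.0124 for Dhcr7, -0.0457 for Srebf2, -0.00904 for Srebf1 and -0.087 for Scd2. Srebf2 gave -0.00206 with RLE size factors, -0.00217 with DESeq2, -0.00441 with no filter, -0.00311 with coding transcripts only, -0.00474 without MM5, MM8 and MM9, and -0.0157 without SHAM7 and SHAM8. Without SHAM7 and SHAM8, Fdft1 gave -0.0052 and Scd2 -0.00964. Srebf1 gave -0.017 without MM5, MM8 and MM9, and Scd2 -0.000129 with the replicate block. With 1 library left out, Srebf2 ran from -0.0179 to 0.0138, Srebf1 from -0.0328 to 0.0762 and Scd2 from -0.0177 to 0.0557. Of the named genes, depth limits Soat2 and Ch25h most, at a few CPM or less.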
